A study of Homo sapiens with 8 samples.

Results

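The transcripts described here are 9 noncoding host transcripts of small nucleolar RNAs (snoRNAs): GAS5, SNHG1, SNHG5, SNHG6, ZFAS1, SNHG7, SNHG8, SNHG12 and SNHG15. They were chosen by name, as the rows of the deposited gene table that carry these symbols, and all 9 of 9 were present among the 58825 genes used and passed the filter on low values that 16542 genes passed. RNA was measured in BJ, an established skin fibroblast line, in a derivative labelled BJ-HRAS. SNORA13 knockout (KO) clones 66 and 69 and wild-type (WT) clones 15 and 54 were each sampled with and without (Z)-4-hydroxytamoxifen (4-OHT), given at 100 nM for 7 days. The 8 libraries thus fell into 4 groups of 2 clones: KO with 4-OHT, WT with 4-OHT, KO without 4-OHT and WT without 4-OHT. All 4 groups share the BJ-HRAS background, and in cells of this kind 4-OHT is used to switch on a fusion of HRAS with an oestrogen receptor domain. SNORA13 is an H/ACA snoRNA. Each group holds 2 clones, so the error behind each p-value comes from differences between the 2 clones of a group. It was pooled over the 4 groups and drew on the spread of other genes. An effect of the knockout cannot be told apart from other differences of the clones.

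A snoRNA host gene makes 2 products from 1 transcript. The introns are excised and trimmed to snoRNAs, which guide ribose methylation (the C/D box class) or pseudouridylation (the H/ACA class) of ribosomal and other RNAs. The spliced exons leave as a noncoding RNA. For many hosts, GAS5 among them, that RNA starts with a run of pyrimidines, as ribosomal protein messages do, is bound by ribosomes and is degraded by nonsense-mediated decay (NMD). GAS5 was named for its accumulation in growth-arrested cells and is known as a decoy of the glucocorticoid receptor. GAS5, SNHG1, SNHG5, SNHG6 and ZFAS1 carry C/D box snoRNAs, SNHG7, SNHG8 and SNHG15 carry H/ACA snoRNAs, and SNHG12 carries both classes.

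The starts of the hosts are shown because they hold the sequence features that several of them share. RefSeq (GRCh38.p14) gave a promoter for 7 of the 9 hosts, and the windows below run from 45 bases before the start to the 50th base from it, 5′ to 3′ on the host's strand. Capitals mark the letters TATA where they lie 40 to 20 bases before the start. They also mark the longest stretch of C or T, counted only within 10 bases of the start. The runs of SNHG7 (upstream) and SNHG12 (downstream) go on past that limit in small letters.
SNHG1: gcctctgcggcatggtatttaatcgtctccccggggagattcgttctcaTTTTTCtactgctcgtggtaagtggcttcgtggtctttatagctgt
SNHG5: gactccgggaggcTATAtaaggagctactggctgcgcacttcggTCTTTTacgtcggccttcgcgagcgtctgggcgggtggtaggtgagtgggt
SNHG7: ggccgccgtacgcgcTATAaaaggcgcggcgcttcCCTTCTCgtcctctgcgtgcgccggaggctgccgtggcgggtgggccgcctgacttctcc
SNHG8: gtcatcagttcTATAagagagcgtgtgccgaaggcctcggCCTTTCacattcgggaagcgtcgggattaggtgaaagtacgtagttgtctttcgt
SNHG12: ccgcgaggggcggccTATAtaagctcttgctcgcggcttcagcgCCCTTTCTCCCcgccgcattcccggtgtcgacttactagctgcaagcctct
ZFAS1: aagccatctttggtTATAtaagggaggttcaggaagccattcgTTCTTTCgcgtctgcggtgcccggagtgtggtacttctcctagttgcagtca
A run of at least 5 pyrimidines stood within 10 bases of the start, on either side, in these 6 hosts, against 37.3% of the 35116 RefSeq promoters of the same length. The marked SNHG7 stretch began at an offset of -10, the edge of the search, and ended before the start. The marked SNHG1 stretch began at an offset of 4. In both windows a shorter run lies over the start itself, tcctct in SNHG7 and ttctc in SNHG1. The marked stretch is thus not always the run at the first bases of the RNA. TATA stood in 5 of the 7, against 5.91% of those promoters, at offsets of -32 (SNHG5), -30 (SNHG7 and SNHG12), -34 (SNHG8) and -31 bases (ZFAS1). Only the host's own strand was searched, and the 2 motifs do not overlap. The GAS5 window had neither, and its RefSeq start at 173869045 lies outside the span that GENCODE release 29 gives the gene, so it is not printed. The windows were taken on chromosome 11 at 62855836-62855930 for SNHG1, chromosome 6 at 85678684-85678778 for SNHG5, and chromosome 9 at 136728135-136728229 for SNHG7, all on the minus strand. SNHG8 was taken on chromosome 4 at 118278717-118278811 (plus strand), SNHG12 on chromosome 1 at 28581824-28581918 (minus strand) and ZFAS1 on chromosome 20 at 49278597-49278691 (plus strand). A match of letters is a description of the window and not a binding site.

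Library totals were 22.1 to 24.9 M reads, and log2 values across genes, which are not independent replicates, correlated between the 2 clones of each group at r = 0.984 to 0.992. SNORA13 had 0 reads in all 4 KO libraries and 4 to 7 reads in the WT libraries, so its reads separated the genotypes as labelled. All 10 fibroblast markers had a mean above 1 RPKM, that is, reads divided by transcript length and library size. Their summed level was 1780 to 2071 RPKM in KO with 4-OHT, 1867 to 1898 in WT with 4-OHT, 3799 to 3974 in KO without it and 3983 to 4242 in WT without it, and the part of this difference in the host results was not tested. Of the epithelial, endothelial, immune and melanocyte or neural markers, 1 of 16 had a mean above 1 RPKM, an immune marker. The RNA of the signal recognition particle took 16.1% and 14.8% of the reads in KO clones 66 and 69 with 4-OHT and 9.73% and 15.4% in WT clones 15 and 54 with 4-OHT, against 9.27% and 10.1% in the same KO clones and 9.19% and 9.59% in the same WT clones without it. With these and the mitochondrially encoded RNAs left out of the library totals, all 18 calls on the hosts given below held.

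Below, values are RPKM divided by trimmed-mean (TMM) factors, and clones are always given in the order 66 then 69 for KO and 15 then 54 for WT. Together the 9 hosts took 245 and 238 reads per M in KO with 4-OHT and 204 and 212 in WT with 4-OHT, against 322 and 337 in KO without it and 271 and 225 in WT without it. SNHG5 and SNHG6 stood highest and SNHG12 lowest in each group, and group means ran from 132 RPKM (SNHG6, KO without 4-OHT) down to 0.984 RPKM (SNHG12, WT without 4-OHT). In KO with 4-OHT the order by mean was SNHG5, SNHG6, SNHG8, GAS5, SNHG15, SNHG7, ZFAS1, SNHG1 and SNHG12, and the clones overlapped between SNHG8 and GAS5 and between SNHG7 and ZFAS1. In WT with 4-OHT it was SNHG5, SNHG6, GAS5, SNHG8, ZFAS1, SNHG15, SNHG7, SNHG1 and SNHG12, with overlap between ZFAS1 and SNHG15. In KO without 4-OHT it was SNHG6, SNHG5, SNHG8, GAS5, ZFAS1, SNHG7, SNHG15, SNHG1 and SNHG12, with overlap between ZFAS1 and SNHG7. WT without 4-OHT had that same order, with overlap between SNHG6 and SNHG5 and between SNHG8 and GAS5. SNHG15 thus ranked above SNHG7 in both groups with 4-OHT and below it in both groups without. The order rests on 1 transcript length for each gene. For SNHG1 that was a transcript of 2768 bases that keeps an intron, against a median of 748 bases over its annotated transcripts, so its level per length would be higher with a shorter one.

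**Figure D1:**
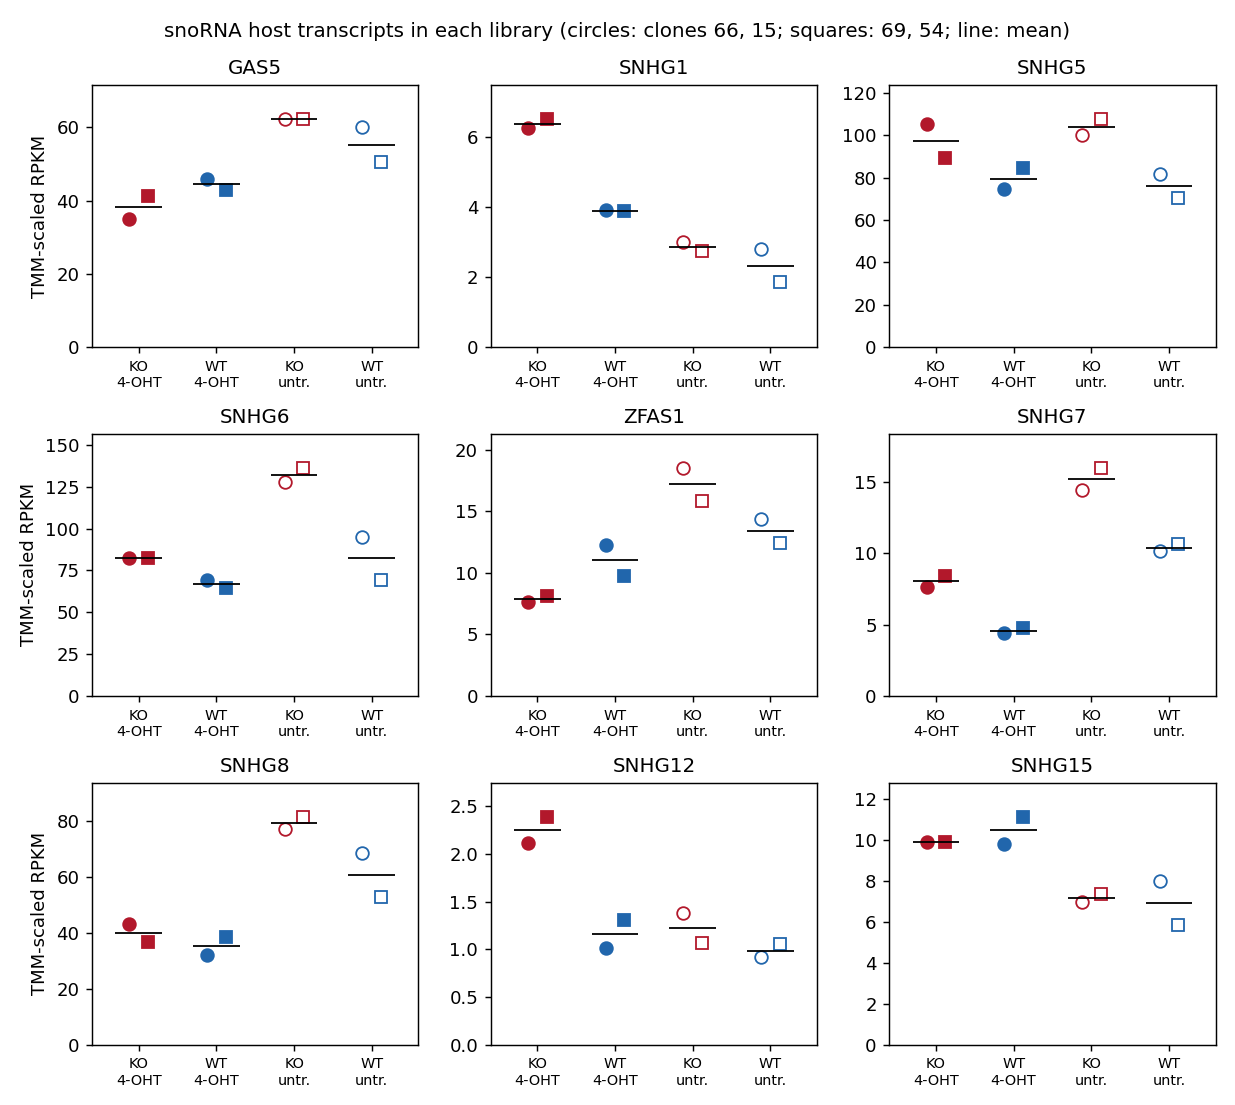
TMM-scaled RPKM of each host (vertical axis, starting at 0, 1 panel per host) in the 8 libraries, with KO in red, WT in blue, filled symbols with 4-OHT and open symbols without it. Each symbol is 1 clone and each line the mean of 2 clones; SNHG7, SNHG8 and GAS5 lie lower with 4-OHT in both genotypes, and SNHG1 and SNHG15 lie higher.

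The first 2 comparisons asked how the hosts responded to 4-OHT in each genotype. The hosts did not move as 1 group. In KO clones 5 fell (ZFAS1, SNHG8, SNHG7, GAS5 and SNHG6), 3 rose (SNHG1, SNHG12 and SNHG15) and SNHG5 did not pass the test. In WT clones 2 fell (SNHG7 and SNHG8), 2 rose (SNHG1 and SNHG15) and 5 did not pass the test. The test was limma's, with p-values adjusted by Benjamini-Hochberg over all genes tested and a threshold of 0.05, and fold changes are of log2(value + 0.1), so that those of weakly expressed genes come out too small. Among all genes tested, 28.7% rose and 27% fell in KO (55.7% in all), and 25% rose and 23.8% fell in WT (48.8% in all), and the shares of hosts called in WT were near these. The median log2 change of the 9 hosts was -0.68 in KO (0 over all genes tested) and -0.28 in WT (-0.01 over all genes tested). In these bulk samples less RNA per cell and fewer cells that make it cannot be told apart.

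Among the C/D box hosts, ZFAS1 fell most in KO clones. ZFAS1 (ENSG00000177410.12), named for its place antisense to the start of the ZNFX1 gene, lies on chromosome 20 at 49278178-49295738 (GRCh38, plus strand). It measured 7.61 and 8.13 RPKM in KO with 4-OHT, against 18.5 and 15.9 RPKM in KO without it. It measured 12.3 and 9.71 RPKM in WT with 4-OHT, against 14.3 and 12.4 RPKM in WT without it. Both KO clones were more than 1 RPKM below every other library when treated, and the WT pairs lay close together without overlapping. The log2 change was -1.11 ± 0.14 in KO (SE; limma adjusted p = 0.000419), 2.16-fold lower, and -0.28 ± 0.14 in WT (adjusted p = 0.131). Without treated WT clone 15 the WT change was -0.45 (0.0459), and without treated WT clone 54 it was -0.12 (0.557).

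GAS5 (ENSG00000234741.8) lies on chromosome 1 at 173863900-173868882 (minus strand). It measured 35.1 and 41.4 RPKM in KO with 4-OHT, against 62.2 and 62.3 RPKM in KO without it. It measured 45.9 and 42.9 RPKM in WT with 4-OHT, against 60.1 and 50.4 RPKM in WT without it. Every treated library was below every untreated one. GAS5 fell 1.63-fold in KO (log2 -0.71 ± 0.11; limma adjusted p = 0.00133). In WT its log2 change was -0.31 ± 0.11 with an adjusted p of 0.0536, and with the clone as a block, which pairs the libraries of 1 clone, limma gave an adjusted p of 0.0313. The WT change rested on single libraries: it was -0.44 (adjusted p = 0.0182) without untreated WT clone 54 and -0.18 (0.229) without untreated WT clone 15. Without either treated KO clone the adjusted p was 0.047, and without any 1 of the other 4 libraries it was 0.0867 to 0.2.

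SNHG6 (ENSG00000245910.8) lies on chromosome 8 at 66921684-66926398 (minus strand). It measured 82.6 and 82.7 RPKM in KO with 4-OHT, against 128 and 136 RPKM in KO without it. WT clones gave 69.2 and 64.3 RPKM with 4-OHT, against 95.03 and 69.5 RPKM without it. The KO groups were far apart, whereas WT clone 54 was nearly level and clone 15 was not. The log2 change was -0.68 ± 0.14 in KO (limma adjusted p = 0.00436) and -0.28 ± 0.14 in WT (adjusted p = 0.127). The WT change was -0.51 (adjusted p = 0.00291) without untreated WT clone 54 and -0.058 (0.605) without untreated WT clone 15.

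SNHG1 (ENSG00000255717.6), the host of a cluster of C/D box snoRNAs, lies on chromosome 11 at 62851988-62855914 (minus strand) and moved the other way. It measured 6.26 and 6.52 RPKM in KO with 4-OHT, against 3.01 and 2.75 RPKM in KO without it. It measured 3.91 and 3.89 RPKM in WT with 4-OHT, against 2.80 and 1.86 RPKM in WT without it. The treated libraries were above the untreated ones in both genotypes, and both treated KO clones were the highest of all 8. SNHG1 rose 2.18-fold in KO (log2 1.13 ± 0.18; limma adjusted p = 0.0014) and 1.68-fold in WT (log2 0.75 ± 0.18; adjusted p = 0.0114).

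SNHG5 (ENSG00000203875.11), host of SNORD50A and SNORD50B, lies on chromosome 6 at 85660950-85678748 (minus strand). It measured 105 and 89.3 RPKM in KO with 4-OHT, against 99.9 and 108 RPKM in KO without it. WT clones gave 74.4 and 84.6 RPKM with 4-OHT, against 81.8 and 70.4 RPKM without it. The treated and untreated clones overlapped in both genotypes, and the 2 clones of a genotype moved in opposite directions. The log2 change was -0.10 ± 0.12 in KO (limma adjusted p = 0.521) and 0.06 ± 0.12 in WT (adjusted p = 0.679), and SNHG5 was the host with the most reads, 1317 to 2164 per library.

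Of the hosts of H/ACA snoRNAs, SNHG7 and SNHG8 fell in both genotypes. SNHG7 (ENSG00000233016.6), host of SNORA17A and SNORA17B, lies on chromosome 9 at 136721366-136728184 (minus strand). It measured 7.62 and 8.44 RPKM in KO with 4-OHT, against 14.4 and 16.0 RPKM in KO without it. It measured 4.43 and 4.74 RPKM in WT with 4-OHT, against 10.2 and 10.6 RPKM in WT without it. The 4 groups did not overlap, and the clones of a group lay closer together than any 2 groups. SNHG7 fell 1.88-fold in KO (log2 -0.91 ± 0.10; limma adjusted p = 0.000181) and 2.24-fold in WT (log2 -1.16 ± 0.10; adjusted p = 8.9e-05).

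SNHG8 (ENSG00000269893.7), the shortest of the host genes and host of SNORA24, lies on chromosome 4 at 118278709-118279823 (plus strand). It measured 43.0 and 36.6 RPKM in KO with 4-OHT, against 77.0 and 81.5 RPKM in KO without it. It measured 32.1 and 38.6 RPKM in WT with 4-OHT, against 68.5 and 52.6 RPKM in WT without it. All treated libraries were below all untreated ones, while the treated KO and WT clones overlapped. The log2 change was -0.996 ± 0.15 in KO (limma adjusted p = 0.00103) and -0.77 ± 0.15 in WT (adjusted p = 0.00438).

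SNHG12 (ENSG00000197989.14), host of SNORA16A, SNORA44, SNORA61 and SNORD99, lies on chromosome 1 at 28578538-28583132 (minus strand) and had the fewest reads, 41 to 105 per library. It measured 2.11 and 2.39 RPKM in KO with 4-OHT, against 1.38 and 1.07 RPKM in KO without it. It measured 1.01 and 1.31 RPKM in WT with 4-OHT, against 0.917 and 1.05 RPKM in WT without it. The treated KO clones stood alone, and the other 6 libraries lay between 0.917 and 1.38 RPKM. SNHG12 rose 1.79-fold in KO (log2 0.84 ± 0.21; limma adjusted p = 0.0105), a call that ended without KO clone 69 treated (0.0644) or untreated (0.0721). In WT the log2 change was 0.21 ± 0.21 (adjusted p = 0.437).

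SNHG15 (ENSG00000232956.8), host of SNORA9, lies on chromosome 7 at 44983023-44986961 (minus strand). It measured 9.91 and 9.93 RPKM in KO with 4-OHT, against 6.99 and 7.37 RPKM in KO without it. It measured 9.82 and 11.1 RPKM in WT with 4-OHT, against 8.01 and 5.88 RPKM in WT without it. Every treated library was above every untreated one in both genotypes. SNHG15 rose 1.38-fold in KO (log2 0.46 ± 0.15; limma adjusted p = 0.0299) and 1.52-fold in WT (log2 0.60 ± 0.15; adjusted p = 0.0117). The KO call ended without any 1 of the 4 KO libraries (adjusted p = 0.0827 to 0.126) and the WT call without treated WT clone 54 (0.0689).

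**Figure D2:**
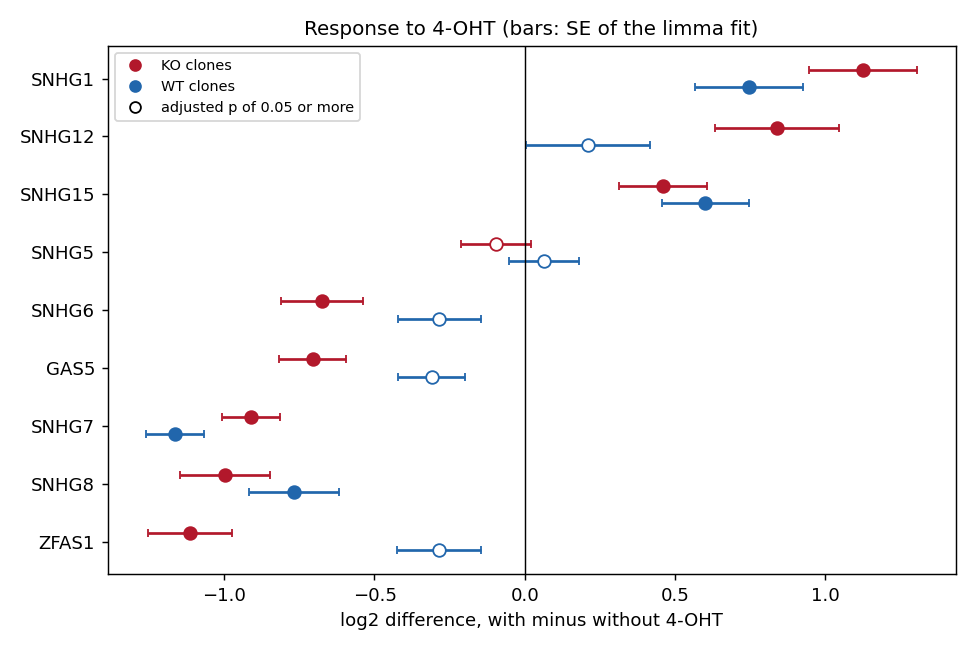
Difference with minus without 4-OHT (horizontal axis, log2) for each host, in KO (red, upper) and WT (blue, lower), with bars of 1 SE from limma. Filled points have an adjusted p under 0.05; SNHG1 (1.13 in KO) stands at the top and ZFAS1 (-1.11 in KO, -0.28 in WT) at the bottom, where the genotypes lie farthest apart.

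The next 2 comparisons asked how SNORA13 KO clones differed from WT clones at each treatment. With 4-OHT, 3 hosts were higher in KO (SNHG12, SNHG7 and SNHG1), 0 were called lower and 6 did not pass limma's test, against 7.07% of all genes called higher and 7.01% called lower (14.1% in all). At an unadjusted p under 0.05, 4 hosts were higher and 1 was lower (ZFAS1), against 15.6% higher and 14.5% lower over all genes, and limma-voom on the recovered reads called 0 lower. Without 4-OHT, 2 hosts were higher in KO (SNHG6 and SNHG7), 0 were called lower and 7 did not pass, against 2.73% called higher and 3.57% called lower (6.3% in all) over all genes. At an unadjusted p under 0.05, 5 hosts were higher and 0 lower, against 12% higher and 13.03% lower over all genes, and limma-voom also called 0 lower. The fitted difference was above 0 for 9 of 9 hosts without 4-OHT, against 8238 of 16542 genes tested. This shared sign rested in part on untreated WT clone 54. Without that library the log2 difference was -0.16 for SNHG15, 0.038 for SNHG1 and 0.049 for GAS5, while SNHG7 and SNHG12 were at 0.57 and 0.37. Without untreated WT clone 15, SNHG15, SNHG1 and GAS5 were at 0.28, 0.60 and 0.30. The median log2 was 0.36 without 4-OHT (-0.0009 over all genes tested) and 0.29 with 4-OHT (0.01 over all genes tested). This was not particular to the 9 hosts. The 16 other noncoding hosts tested had medians of 0.31 without 4-OHT and 0.18 with it, and 38 protein-coding hosts had 0.20 and 0.15. Both comparisons set the same 4 clones against each other, so a difference between clones can appear in both, and a host called or of the same sign at both treatments is not 2 independent results.

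SNHG7 was the host called at both treatments. Its KO clones with 4-OHT stood at 7.62 and 8.44 RPKM, against 4.43 and 4.74 RPKM in WT with 4-OHT, a log2 difference of 0.79 ± 0.10 (limma adjusted p = 0.00608). Without 4-OHT its KO clones gave 14.4 and 16.0 RPKM, against 10.2 and 10.6 RPKM in WT (0.54 ± 0.10, adjusted p = 0.025). KO clones were thus above WT clones within either treatment, by 1.73-fold with 4-OHT and 1.46-fold without it. The call with 4-OHT ended without treated KO clone 69 (0.0551), and the call without 4-OHT ended without untreated KO clone 66 (0.102), KO clone 69 (0.173) or WT clone 54 (0.0646).

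SNHG12 and SNHG1, both low in RPKM, were higher in KO with 4-OHT. SNHG12 averaged 2.25 ± 0.19 RPKM in KO and 1.16 ± 0.21 RPKM in WT with 4-OHT (SD, n = 2 clones each), a log2 difference of 0.91 ± 0.21 (limma adjusted p = 0.0304). SNHG1 averaged 6.39 ± 0.19 RPKM in KO and 3.90 ± 0.02 RPKM in WT with 4-OHT (SD, n = 2 clones each), a log2 difference of 0.70 ± 0.18 (limma adjusted p = 0.0439). Neither pair of groups overlapped. The SNHG12 call ended without treated KO clone 66 (0.0886) or 69 (0.167) or treated WT clone 15 (0.151), and the SNHG1 call ended without any of the 4 KO libraries or either treated WT library (0.0794 to 0.194). Without 4-OHT the adjusted p was 0.441 for SNHG12 (log2 0.28 ± 0.21) and 0.315 for SNHG1 (0.32 ± 0.18), and for SNHG1 it was 0.0362 without untreated WT clone 15 and 0.901 without untreated WT clone 54.

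SNHG6 was higher in KO without 4-OHT, at 132 ± 6 RPKM in KO and 82.3 ± 18.1 RPKM in WT (SD, n = 2 clones each), a log2 difference of 0.70 ± 0.14 (limma adjusted p = 0.0319). With 4-OHT the log2 difference was 0.31 ± 0.14 (adjusted p = 0.182). The untreated KO clones gave 128 and 136 RPKM and the WT clones 95.03 and 69.5 RPKM, so the WT clones were farther apart than the KO clones and the groups did not overlap. The call ended without untreated KO clone 66 (0.139) or 69 (0.188), without any 1 treated library (0.0514 to 0.0661), and when the 4 untreated libraries were fitted alone (0.112). With 4-OHT the adjusted p was 0.026 without either untreated WT clone and 0.246 to 0.421 without any other library.

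The other hosts did not pass the test between genotypes. SNHG5 had a log2 difference of 0.29 ± 0.12 with 4-OHT and 0.45 ± 0.12 without it (limma adjusted p = 0.0673 without it, 0.0399 when untreated WT clone 15 was left out and up to 0.302 without another library). SNHG8 had differences of 0.17 ± 0.15 with 4-OHT and 0.40 ± 0.15 without it, with overlapping clones under 4-OHT (adjusted p = 0.151 without 4-OHT, 0.0449 when untreated WT clone 15 was left out and 0.461 when WT clone 54 was). ZFAS1 and GAS5 had opposite signs at the 2 treatments: ZFAS1 -0.47 ± 0.14 with 4-OHT (adjusted p = 0.0653, 0.0476 without treated WT clone 54 and 0.281 without treated WT clone 15) and 0.36 ± 0.14 without it (0.164), and GAS5 -0.22 ± 0.11 with 4-OHT and 0.18 ± 0.11 without it. SNHG15 was nearest to 0, at -0.08 ± 0.15 with 4-OHT and 0.06 ± 0.15 without it.

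**Figure D3:**
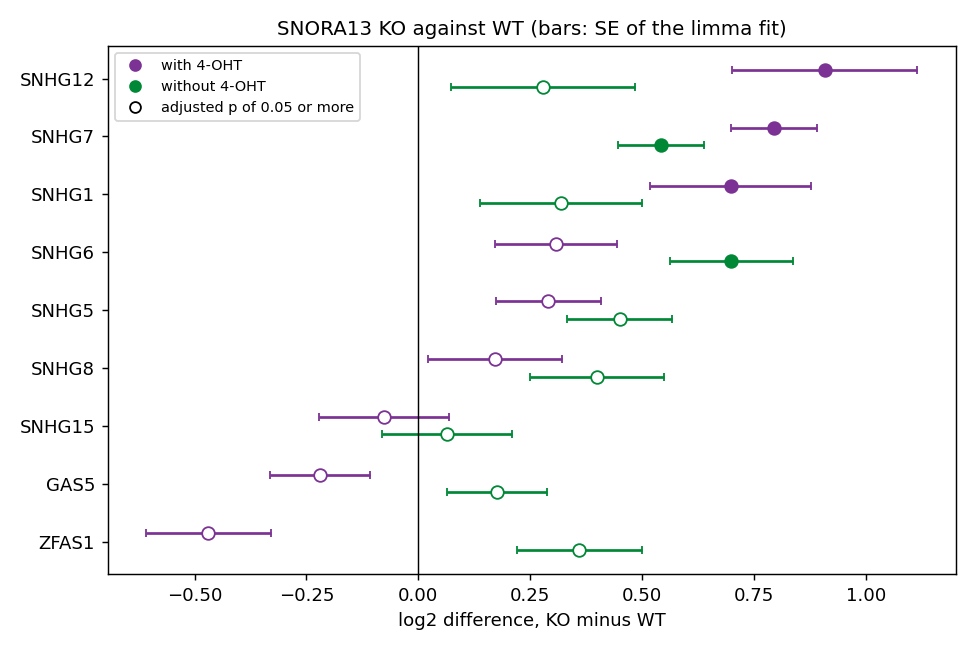
Difference KO minus WT (horizontal axis, log2) for each host, with 4-OHT (purple, upper) and without 4-OHT (green, lower), with bars of 1 SE from limma. Filled points have an adjusted p under 0.05; SNHG7 is filled at both treatments (0.79 and 0.54), and ZFAS1 has opposite signs (-0.47 and 0.36).

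Whether the response to 4-OHT itself differed by genotype was tested as the KO response minus the WT response. ZFAS1 was the 1 host called, with a difference of -0.83 ± 0.20 (log2; limma adjusted p = 0.049), against 4.44% of all genes called higher and 3.04% called lower (7.48% in all). It fell 2.16-fold in KO, and its log2 change in WT was -0.28 ± 0.14. For SNHG12, which rose in KO and did not pass in WT, the difference was 0.63 ± 0.29 (adjusted p = 0.233). For GAS5 and SNHG6, which fell in KO, it was -0.40 ± 0.16 (adjusted p = 0.174) and -0.39 ± 0.19 (adjusted p = 0.261), so a difference between their responses was not shown. The ZFAS1 call lay near the threshold and ended without any 1 of the 4 KO libraries (adjusted p = 0.102 to 0.158), without treated WT clone 15 (0.124) and without untreated WT clone 54 (0.105).

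The snoRNAs inside the hosts were read in the same libraries, though the RNA kit and short products limit how many were caught. Of the 23 snoRNA rows that lie within hosts other than GAS5, 15 had reads and 7 passed the filter. The other 8 were at 0 in every library (which allows up to 3 reads in each, for counting error only). SNORA16A and SNORA17B each appear again at nearly the same place, and RF00560 lies over SNORA17A, so the rows are not all separate snoRNAs. In 12 of the 15 rows with reads, and in all 8 at 0, an annotated host exon also covers the snoRNA, and there reads of the host and of the snoRNA cannot be told apart. The snoRNAs of GAS5 are not analysed here. The 3 printed below are those with the most reads, with the C box TGATGA and the D box CTGA (SNORD12B and SNORD12C) or the ACA box (SNORA24) in capitals.
SNORD12B: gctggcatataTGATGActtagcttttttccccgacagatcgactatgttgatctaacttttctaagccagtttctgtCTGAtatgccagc
SNORD12C: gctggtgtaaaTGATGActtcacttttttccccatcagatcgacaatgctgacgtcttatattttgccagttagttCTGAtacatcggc
SNORA24: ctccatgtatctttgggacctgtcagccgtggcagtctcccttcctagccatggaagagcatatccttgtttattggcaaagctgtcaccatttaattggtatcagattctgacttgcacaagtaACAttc
They were read on the plus strand of GRCh38, SNORD12B on chromosome 20 at 49280319-49280409, SNORD12C on chromosome 20 at 49278940-49279028 and SNORA24 on chromosome 4 at 118279190-118279320.

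SNORA24 and its host SNHG8 moved in opposite directions in KO clones. SNORA24, which guides pseudouridylation of 18S ribosomal RNA, had 30 and 32 reads in KO with 4-OHT, against 9 and 19 in KO without it, and 17 and 18 reads in WT with 4-OHT, against 17 and 12 in WT without it. It rose in KO (log2 1.32, limma adjusted p = 0.0085) while SNHG8 fell (-0.996). The RF00099 row inside SNHG1, named by an RNA family, had 16 and 15 reads in KO with 4-OHT against 8 and 3 without it, and rose with its host (log2 1.69, limma adjusted p = 0.0488). The RF00099 call ended without treated KO clone 66 (0.158) or 69 (0.122), with no filter (0.135), with no trend or robust moderation (0.0761) and with a pseudocount of 0.01 (0.0536). Without untreated KO clone 69 its log2 change was 1.01 (adjusted p = 0.264), and without untreated KO clone 66 it was 2.37 (0.0298). These values rest on few reads per library, whose counting error is large.

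In the 4-OHT comparisons, SNORD12B and SNORD12C were called in WT and ZFAS1, their host, in KO. SNORD12B had 14 and 20 reads in KO with 4-OHT, against 24 and 20 in KO without it, and 5 and 8 reads in WT with 4-OHT, against 11 and 14 in WT without it. SNORD12C had 7 and 23 reads in KO with 4-OHT, against 24 and 20 in KO without it, and 5 and 4 reads in WT with 4-OHT, against 18 and 9 in WT without it. SNORD12B (log2 -0.96, limma adjusted p = 0.028) and SNORD12C (log2 -1.48, adjusted p = 0.041) fell in WT, where ZFAS1 did not pass the test. In KO, where ZFAS1 fell, neither passed (-0.29 and -0.68), and the difference of the responses was not called for SNORD12B (limma adjusted p = 0.352) or SNORD12C (0.52). With 4-OHT, SNORD12B was higher in KO than in WT (log2 1.43, limma adjusted p = 0.0216), while the ZFAS1 difference was -0.47. The SNORD12B fall, the SNORD12C fall and the SNORD12B difference all ended with limma-voom on the recovered reads (adjusted p = 0.136, 0.105 and 0.0664). They also ended with no filter (limma adjusted p = 0.0881, 0.122 and 0.0746). The SNORD12C fall ended with a pseudocount of 1 (0.057) and with no trend or robust moderation (0.0681) as well. Each of these 3 snoRNA calls ended when 1 library was left out: the SNORD12B fall without WT clone 15 treated (0.13) or 54 untreated (0.117), and the SNORD12C fall without WT clone 15 treated (0.109) or untreated (0.183), WT clone 54 treated (0.134) or either untreated KO clone (0.0645 and 0.0646). The SNORD12B difference ended without treated KO clone 66 (0.0572) or 69 (0.137) or WT clone 15 (0.0872).

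**Figure D4:**
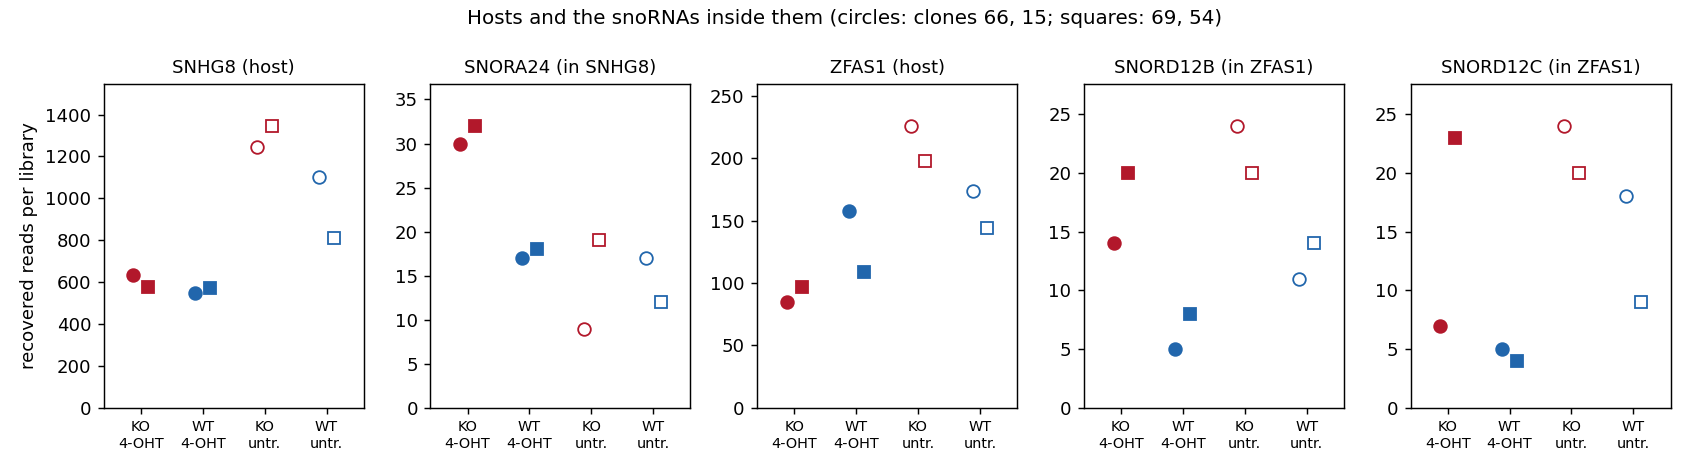
Recovered reads per library (vertical axes, starting at 0) of SNHG8 with SNORA24 and of ZFAS1 with SNORD12B and SNORD12C, in KO (red) and WT (blue) clones, filled with 4-OHT and open without it. SNORA24 is highest in KO with 4-OHT (30 and 32 reads), where SNHG8 is low, and SNORD12B is lowest in WT with 4-OHT (5 and 8 reads).

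Other genes share bases with the exons of 5 of the hosts, on the opposite strand, and the strand setting of the counting is not given in the sources used here. Without it, reads of the host and the partner cannot be told apart. SNHG7 shares 1094 exon bases with FAM69B, listed as DIPK1B, a kinase-like membrane protein gene. DIPK1B moved with SNHG7: it fell in KO (log2 -1.002, limma adjusted p = 0.00491) and in WT (-0.68, adjusted p = 0.03), and was higher in KO without 4-OHT (0.93, adjusted p = 0.0459). The WT fall had an adjusted p of 0.0568 with the clone block and ended without WT clone 15 treated or untreated (0.128 each), and the difference without 4-OHT ended without any library but untreated WT clone 15 (0.06 to 0.258). ZFAS1 shares 249 exon bases with ZNFX1, a helicase-like gene with 1393 to 2550 reads per library. ZNFX1 fell in KO (log2 -0.75, limma adjusted p = 0.00094) and in WT (-0.34, adjusted p = 0.0366), and the difference of its responses was -0.41 (adjusted p = 0.162). The WT fall ended without any library but treated WT clone 15 (0.0512 to 0.182). The part of these partners in the host results was not tested. SNHG6 shares 365 bases with MCMDC2 (21 to 53 reads), which fell in WT (log2 -0.63, limma adjusted p = 0.0437), a call that ended in 12 of 19 alternatives, the clone block among them (0.0726). GAS5 shares 42 bases with GAS5-AS1 (51 to 100 reads) and SNHG12 shares 8 bases with TRNAU1AP. TRNAU1AP rose in both genotypes (0.73 in KO, 0.63 in WT).

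Other host genes and the proteins that handle snoRNAs were read from lists taken from general knowledge. Of 16 other noncoding hosts tested (of 19 listed), 7 rose and 4 fell in KO, and 5 rose and 4 fell in WT. Over all genes tested, 28.7% rose and 27% fell in KO, and 25% rose and 23.8% fell in WT. The falls of these other hosts were near those shares. Their median log2 was 0.50 in KO and 0.25 in WT. SNHG16 rose 1.85-fold in KO and 2.44-fold in WT, to 103 ± 6 RPKM in KO with 4-OHT and 94.1 ± 1.2 RPKM in WT with 4-OHT (SD, n = 2 clones each). C6orf48, also called SNHG32, fell 2.94-fold in KO and 1.79-fold in WT, and its responses differed between genotypes (log2 -0.72 ± 0.16, limma adjusted p = 0.0396, and 0.0623 with the clone block). EPB41L4A-AS1, the host of SNORA13 itself, fell 3.13-fold in KO and 2.13-fold in WT. With 4-OHT, SNHG3, SNHG17 and SNHG19 were higher in KO than in WT, 1.57-fold, 1.75-fold and 1.71-fold, and C6orf48 was lower (log2 -0.50, limma adjusted p = 0.0293), a host named after its value was seen. These 4 calls each ended without any 1 of the 4 treated libraries (adjusted p = 0.0569 to 0.16), and those of SNHG17 and C6orf48 also without either untreated KO clone (0.0561 to 0.0601). Without 4-OHT, SNHG16, EPB41L4A-AS1 and SNHG29 were higher in KO, and each call ended without untreated KO clone 66 or 69 (0.0911 to 0.186), those of SNHG16 and EPB41L4A-AS1 also without untreated WT clone 54 (0.0514 and 0.065), and that of SNHG29 also without either treated KO clone (0.059 and 0.0592).

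Of 38 protein-coding hosts tested, 17 rose and 4 fell in KO, and 15 rose and 1 fell in WT. The shares over all genes tested were 28.7% rising and 27% falling in KO, and 25% rising and 23.8% falling in WT. NCL, the nucleolar protein nucleolin, rose 2.03-fold in KO. EIF4A2, a translation initiation factor, fell 3.40-fold in KO and 2.80-fold in WT. All 8 core proteins of snoRNA particles rose in both genotypes, GAR1 in WT by a call that most alternatives ended, with median log2 changes of 1.02 in KO and 0.76 in WT. The GAR1 call in WT (limma adjusted p = 0.0494) ended in 15 of 19 alternatives, among them the clone block (0.059) and without treated WT clone 54 (log2 0.22 in place of 0.44, adjusted p = 0.254). Among them DKC1, which makes the pseudouridines that H/ACA particles place, rose 2.67-fold in KO and 2.02-fold in WT, and FBL, the methyltransferase of C/D particles, rose 2.12-fold in KO and 1.40-fold in WT. Between genotypes with 4-OHT, FBL (1.47-fold) and NOP56 (1.34-fold) were higher in KO, and both calls ended without either treated KO clone or treated WT clone 15 (0.066 to 0.15). The NOP56 call also ended without treated WT clone 54 (0.0928) or either untreated KO clone (0.056 and 0.0561). Of 14 NMD factors, 7 rose and 1 fell in KO, and 5 rose and 1 fell in WT, beside the same shares over all genes. RBM8A and SMG5 rose in both genotypes, by 2.59-fold and 1.80-fold in KO and 1.86-fold and 1.62-fold in WT.

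The likeness of patterns over the 8 libraries was measured as the root mean square difference of log2 values, each centred on its own mean. Between hosts, GAS5 and ZFAS1 were closest (0.171) and SNHG1 and SNHG7 farthest (1.01). Over all tested genes, ITFG1 was nearest to GAS5 (0.0656), KLHL42 to SNHG5 (0.0594) and CSNK2B to SNHG15 (0.0656). CCN3 was nearest to SNHG6 (0.087), KBTBD7 to SNHG8 (0.0829) and ASB16-AS1 to ZFAS1 (0.088). RF00003 was nearest to SNHG1 (0.092), AC107027.3 to SNHG7 (0.0897) and MBOAT2 to SNHG12 (0.12). A gene near in 8 libraries that share 1 treatment contrast is a description of these samples.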

How the data were processed

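Total RNA was extracted with the miRNeasy kit with DNase on the column, and libraries were made with a stranded total RNA kit, per the labels' protocols. STAR, featureCounts, edgeR and the GRCh38 build are named per the submitters' processing notes, with no version, role or strand setting given there. What the authors deposited is 1 table of RPKM values for 58870 genes. Per the file headers, columns are headed by clone, some with a minus sign. The sign was taken to mean 4-OHT negative, though no label states this. Each RPKM times the length of the listed transcript and 1 library total gave whole reads (within 0.1 read) in 100.0% of values with a listed length. The length was inferred for 6676 genes, and 45 duplicate Y rows were dropped. In a transcript of 1 kb, 1 read is worth 0.0401 to 0.0453 RPKM.

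Because the unit is RPKM, limma (3.58.1, R 4.3.3) was used in place of a count test: log2(RPKM/TMM factor + 0.1), factors of 0.946 to 1.037, 4 group means over 8 libraries (4 residual degrees of freedom), intensity trend and robust moderation. Genes needed a CPM of 0.425 (10 reads in a library of median size) in at least 2 libraries and 15 reads in all. Tests were two-sided, with Benjamini-Hochberg adjustment over the 16542 genes that passed. The fit was tested on simulated data. Libraries of 1 clone with and without 4-OHT come from the same clone and so are paired; their deviations from the group means correlated at 0.0054 in KO and 0.309 in WT. Alternatives were other scalings, pseudocounts, filters and moderation, limma-voom, a clone block, the 4 libraries compared alone and each library left out. Named genes of each list are the 3 with the smallest p in a comparison, and all 8 for snoRNA particle proteins. The hosts and the lists were chosen with earlier results of these data known. Gene positions are from GENCODE release 29, and promoter sequences are from RefSeq.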

Additional observations from a re-analysis of the deposited data

Results flagged for a closer look

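The response of ZFAS1 to 4-OHT differed between genotypes by the test of the difference itself (KO response minus WT response, log2 -0.83 ± 0.20, limma adjusted p = 0.049). ZFAS1 measured 7.61 and 8.13 RPKM in KO with 4-OHT, 12.3 and 9.71 RPKM in WT with 4-OHT, 18.5 and 15.9 RPKM in KO without it and 14.3 and 12.4 RPKM in WT without it. It had 85 to 226 reads per library. The call held with the clone as a block (adjusted p = 0.0327) and ended in 13 of the 18 alternatives, among them every one that left out a KO library (0.102 to 0.158), treated WT clone 15 (0.124) or untreated WT clone 54 (0.105). The test of the difference also called 1 of 16 other noncoding hosts, 1 of 38 protein-coding hosts, 1 of 8 snoRNA particle proteins and 0 of 14 NMD factors. Over all genes tested it called 7.48%. The log2 differences were -0.72 for C6orf48 (adjusted p = 0.0396), 0.49 for NCL (0.0289) and 0.60 for FBL (0.0453). Each of these calls ended when any 1 KO library was left out.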

How the results depend on the processing

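Of the 18 calls on the hosts, 9 held in every alternative run: the KO responses of GAS5, SNHG1, SNHG6, SNHG7, SNHG8 and ZFAS1 and the WT responses of SNHG1, SNHG7 and SNHG8. The other 9 ended in at least 1, and none changed sign. Hosts called higher in KO without 4-OHT were 0 with no filter, with no trend or robust moderation, and with only the 4 libraries compared. With 4-OHT they were 1 with no filter. The 1 host called lower in the difference of responses became 0 with library totals only, with median-of-ratios factors, with a pseudocount of 0.01 or 1, with no filter, with limma-voom and with no trend or robust moderation. With 1 library left out, where the lone library of its group is assumed to vary like the other groups, hosts called in KO were 1 to 3 higher and 5 to 5 lower, and in WT 1 to 2 higher and 2 to 4 lower. Between genotypes they were 0 to 4 higher and 0 to 1 lower with 4-OHT, 0 to 5 higher and 0 to 0 lower without it, and 0 to 0 higher and 0 to 2 lower for the difference of responses. With the clone as a replicate block 3 hosts fell in WT, GAS5 being added (log2 -0.31, adjusted p = 0.0313), and it changed no other call on a host. It could not be fitted between genotypes, which share no clone. Values that changed sign were not called: SNHG5 in WT (-0.011 with library totals only, and -0.044 to 0.17 with 1 library left out, where it was below 0 without treated or untreated WT clone 54) and in KO (-0.21 to 0.025, above 0 without treated KO clone 69). So were, with 1 library left out, SNHG15 between genotypes with 4-OHT (-0.17 to 0.014, above 0 without treated WT clone 54) and without it (-0.16 to 0.28, below 0 without untreated WT clone 54), and its difference of responses (-0.36 to 0.079, above 0 without untreated WT clone 54). TMM factors from the tested genes alone, chosen after seeing the data, changed no call on a host. Over all alternatives, other noncoding hosts that rose were 4 to 9 in KO (7 with the settings used) and 3 to 5 in WT (5), protein-coding hosts that fell were 3 to 10 in KO (4) and 1 to 3 in WT (1), and NMD factors that fell in KO were 0 to 1 (1). The causes were not tested. SNHG12, at 41 to 105 reads, and the snoRNAs are the values most limited by depth.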
